A study of Mus musculus with 21 samples.

Results

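Ctla2a and Ctla2b were read by 3 of the 41174 array probes, in 7 haematopoietic fractions of mouse bone marrow. The array annotation gave probe A_51_P180747 to the RefSeq transcript NM_007796 of Ctla2a. Probe A_51_P489522 was given to transcript NM_007797 of Ctla2b (the first Ctla2b probe), and probe A_52_P68440 to transcript NM_001145801 of Ctla2b (the second). These 2 genes, of 18217 genes with a symbol on the array, were selected on their fall from PreMegE to CFUe, so every comparison that uses the PreMegE or CFUe arrays is described for them without a test.

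CTLA-2 alpha and CTLA-2 beta are small proteins that resemble the propeptide of cathepsin L-type cysteine proteases, the segment that keeps such an enzyme inactive until it is cleaved off. CTLA-2 alpha inhibits cathepsin L-like enzymes although it has no protease domain of its own. Both transcripts were first described in activated T cells and mast cells, and the genes lie in the cluster that also holds the placental cathepsins.

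Fractions were sorted from C57BL/6 mice, with 3 arrays each, and the age of the mice was not given. The labels define lineage-negative (lin-) cells by B220, CD3, CD4, CD8, CD41, Mac1, Gr1 and Ter119, so CD41+ cells were left out of the lin- fractions. KLS cells are the lin- ckit+ sca1+ multipotent compartment. PreMegE (CD150+ CD105- Fc gamma receptor-), CFUe and Ter119 (CD71+ Ter119+) form the erythroid series. PreGM, GMP (CD150- Fc gamma receptor+) and Mac1Gr1 (Mac1+ Gr1+) form the myeloid series. The labels give CFUe and PreGM an identical surface phenotype (CD150- CD105- Fc gamma receptor-) and write sca1+ for the intermediate fractions, so these fractions were taken by their names. No source states that the 3 arrays of a fraction came from separate mice, and p values then measure only the spread between these samples. In sorted bulk cells, fewer cells that carry a transcript and less transcript per cell cannot be told apart.

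Each level is a log2 intensity from which the 75th percentile of its array was subtracted, so 0 equals that percentile, and 56.4% to 77.4% of spots per array were well above background. Ly6a, which encodes Sca-1, was at 2.57 ± 0.17 (SD, n = 3) in KLS, at 2.10 ± 0.03 in GMP, at -0.31 ± 0.10 in PreGM and at -3.14 ± 0.22 in PreMegE, and cleared background on 1 of 3 CFUe arrays, although the labels write sca1+ for each of these. The erythroid list (7 genes) summed to 1357 to 1764 times the 75th percentile in Ter119, to 91.1 to 97.8 in CFUe and to at most 4.20 in KLS. The Ter119 arrays also carried all 8 granulocytic genes above background, with a sum of 4169 to 5348 against 4239 to 4847 in Mac1Gr1. CFUe replicate 3 stood apart from the other 2 arrays: its granulocytic sum was 40.5 against 5.16 and 5.73, and its B cell sum (6 genes) was 2.50 against 0.535 and 0.620. Scaled to spike-in RNAs in place of the percentile, the median change of all tested probes moved away from 0, to between -2.41 (Ter119 vs KLS) and 0.99 (GMP vs PreGM).

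To show how alike the genes are next to their starts, the 250 bases before the annotated RefSeq start (build GRCm38.p6) are printed 5′ to 3′ for Ctla2a (minus strand, chr13:60936626-60936875) and Ctla2b (minus strand, chr13:60897448-60897697). Capitals mark a GATA motif (AGATAA or AGATAG, and the forms with T as their first letter, on either strand) and a TGANTCA motif, the form bound by AP-1 factors.
Ctla2a: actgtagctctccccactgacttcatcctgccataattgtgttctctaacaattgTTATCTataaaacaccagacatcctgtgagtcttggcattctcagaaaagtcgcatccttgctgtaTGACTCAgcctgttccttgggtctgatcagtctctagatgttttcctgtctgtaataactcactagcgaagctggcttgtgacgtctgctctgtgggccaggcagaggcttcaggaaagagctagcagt
Ctla2b: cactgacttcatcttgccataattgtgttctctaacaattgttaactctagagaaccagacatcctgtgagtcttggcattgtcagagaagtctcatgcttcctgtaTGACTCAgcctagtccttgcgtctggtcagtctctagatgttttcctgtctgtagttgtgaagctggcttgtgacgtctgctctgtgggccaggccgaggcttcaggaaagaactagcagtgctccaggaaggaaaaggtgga
Over windows of 300 bases that also take in the 50 bases after each start, 256 of 286 aligned columns were identical (89.5%), with 22 mismatches and 8 gap bases. The window of Ctla2a is the more upstream of 2 annotated starts, which lie 59 bases apart. Motifs were sought only in the 250 bases before a start. TGANTCA, a motif added after the sequences had been seen, occurred once before each gene and was held by 6.75% of 32851 promoter windows of 250 bases. The GATA motif occurred once before Ctla2a and not before Ctla2b (26.5% of all windows), CANNTG occurred once in each (66.2%), neither occurred in the window of the other Ctla2a start, and the PU.1-type motif GGAAGTG occurred in neither (8.55%). Matches did not overlap, and a match describes letters, not binding. In the RefSeq gene order the members alternate with Tpbpb and Tpbpa, followed by placental cathepsins. The letters of the array probes are in no source used here, so which of the 2 transcripts each probe can bind was not tested.

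The probes of both genes were at their highest in KLS and PreMegE, stayed high in PreGM, and were low in GMP, Ter119, Mac1Gr1 and CFUe. The Ctla2a probe was at 7.02, 6.43 and 6.86 on the KLS arrays, at 6.86, 6.79 and 6.22 in PreMegE, and at 5.50, 5.66 and 4.93 in PreGM. It was at 0.67, 0.64 and 0.53 in GMP, at 0.28, 0.59 and 0.31 in Ter119, and at -1.84, -0.99 and -1.10 in Mac1Gr1. In CFUe it was at -3.12, -3.26 and -0.50, with replicate 3 standing above the other arrays. Ordered by mean, Ctla2a ran KLS, PreMegE, PreGM, GMP, Ter119, Mac1Gr1, CFUe. KLS and PreMegE overlapped, as did GMP and Ter119, and Mac1Gr1 and CFUe, whereas PreMegE and PreGM, PreGM and GMP, and Ter119 and Mac1Gr1 did not.

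The first Ctla2b probe gave an equal order of fractions. It was at 6.20, 5.78 and 5.81 in KLS, at 5.89, 6.00 and 5.62 in PreMegE, and at 4.91, 4.97 and 4.03 in PreGM. It was at -0.02, -0.22 and -0.44 in GMP, at -0.56, -0.12 and -0.40 in Ter119, and at -2.65, -1.95 and -2.06 in Mac1Gr1. In CFUe it was at -3.70, -3.37 and -1.43, again with replicate 3 highest. Both this probe and the Ctla2a probe were well above background on all 21 arrays, and the intensity of the Ctla2a probe ran from 55.5 on the dimmest CFUe array to 114692 on the brightest KLS array.

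The second Ctla2b probe was dimmer and reached background in 2 fractions. It was at 4.79, 4.58 and 4.32 in KLS, at 3.93, 4.02 and 3.83 in PreMegE, and at 2.56, 2.65 and 1.78 in PreGM. It was at -2.65, -2.75 and -2.69 in GMP, at -3.34, -1.32 and -2.86 in Ter119, at -4.94, -3.12 and -4.60 in Mac1Gr1, and at -5.82, -7.25 and -4.00 in CFUe. Here KLS and PreMegE did not overlap, Ter119 had a slightly higher mean than GMP with overlapping arrays, and only 1 of 3 arrays was well above background in each of CFUe and Mac1Gr1.

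**Figure D1:**
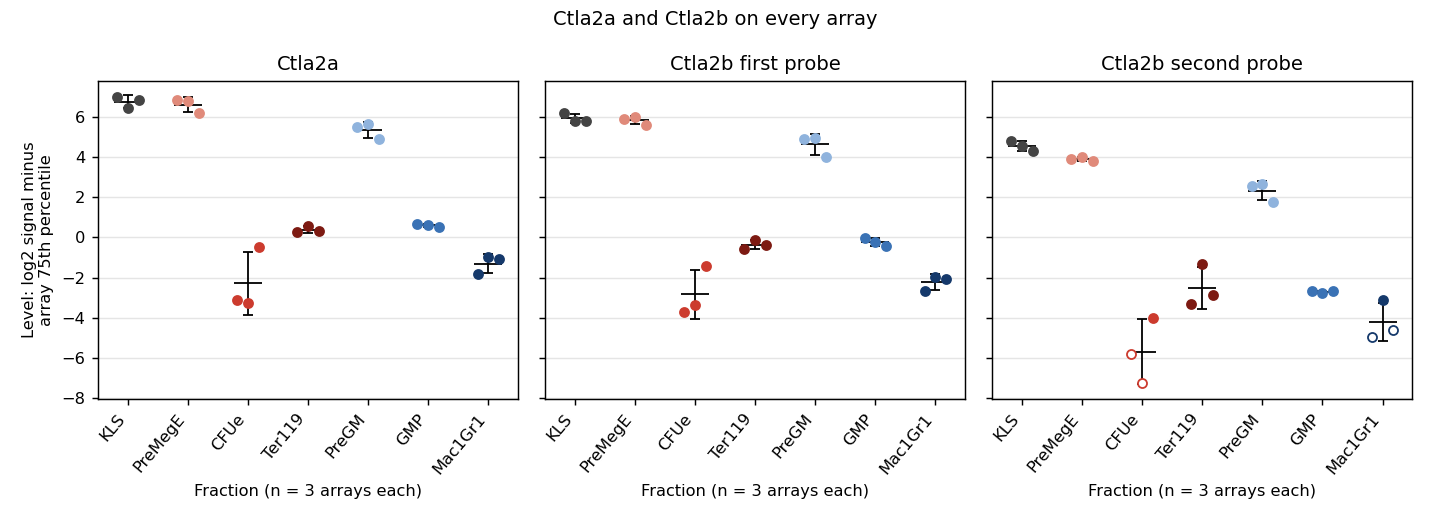
Level of each Ctla2 probe (log2 intensity minus the 75th percentile of the array) on the 3 arrays of each fraction. Points are arrays, open where the probe was not well above background, and bars give the mean ± SD; all 3 probes are high in KLS, PreMegE and PreGM and low in the other 4 fractions, and CFUe replicate 3 lies above the other CFUe arrays.

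The fall from PreMegE to CFUe is the value that selected the genes. It amounted to -8.92 for Ctla2a on the log2 scale (from 6.62 ± 0.35 to -2.29 ± 1.55, SD, n = 3), to -8.67 for the first Ctla2b probe (from 5.84 ± 0.19 to -2.83 ± 1.23) and to -9.62 for the second (from 3.93 ± 0.09 to -5.69 ± 1.63). Among probes with a symbol that were well above background on all 6 arrays and did not overlap, Ctla2a ranked first and the first Ctla2b probe second. Next came Klf2, a zinc finger transcription factor, at -7.96, and Rgs1, a GTPase-activating regulator of G protein signalling, at -7.33. A second Klf2 probe differed by 0.71 in the opposite direction. The second Ctla2b probe was outside this ranking, since 2 of its 3 CFUe arrays did not clear background and its fall is measured against them. So were 2 probes of Robo3, an axon guidance receptor, which were well above background in PreMegE and on none of the CFUe arrays.

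Leaving out CFUe replicate 3 deepened the described falls to -9.81, -9.37 and -10.46 for Ctla2a and the first and second Ctla2b probes. That array lay 2.69, 2.11 and 2.53 above the mean of the other 2 for the 3 probes. Its granulocytic and B cell sums were also higher, as given above, and its stem cell sum (8 genes) was 1.25 against 0.599 and 0.702, while its erythroid sum (97.2) lay between theirs. The part of these transcripts in its Ctla2 level was not tested. The only pair of these fractions on the same slide, CFUe replicate 2 and PreMegE replicate 1, differed by -10.12, -9.26 and -11.18.

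The other 2 erythroid steps were small beside this fall. Between KLS and PreMegE the described difference was -0.15 for Ctla2a, -0.10 for the first Ctla2b probe and -0.63 for the second. With the slide as a block it was 0.92, 0.70 and 0.63, but no slide held arrays of both fractions. That fit compares KLS and PreMegE only through arrays of other fractions, so its change of sign is no direct reading. From CFUe to Ter119 the means were higher by 2.69, 2.47 and 3.18, with every Ter119 array above every CFUe array for each probe, at a step where 29.2% of all probes were called higher. Without CFUe replicate 3 these differences were 3.58, 3.17 and 4.02, and the 1 pair on a shared slide gave 3.43, 3.30 and 2.95. Scaled to the spike-ins they shrank to 1.31, 1.09 and 1.80 and the arrays overlapped. The Ter119 arrays carried the granulocytic transcripts given above, together with B cell (96.6 to 139), T cell (6.73 to 7.52, with Cd28 not above background), mast cell and basophil (50.8 to 56.9) and macrophage transcripts (8.83 to 9.43), all lower in CFUe (at most 40.5 for the granulocytic list, then 2.50, 1.16, 0.876 and 0.427). Their part in the Ter119 levels was not tested.

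The myeloid series, from KLS through PreGM and GMP to Mac1Gr1, and the comparisons of Ter119 with KLS and Mac1Gr1 contrast no PreMegE or CFUe mean. They were tested with limma over 29527 probes. The spread of each probe was still taken from all arrays, the PreMegE and CFUe arrays that selected the genes included. Probes that changed by 2-fold or more with an adjusted p below 0.05 were called. From KLS to PreGM the Ctla2a probe fell by 1.41 (SE 0.50, limma adjusted p = 0.0490), the first Ctla2b probe fell by 1.30 (SE 0.42, adjusted p = 0.0315) and the second fell by 2.23 (SE 0.64, adjusted p = 0.0171). All 3 probes were thus called lower, against 6.52% of all probes tested, and no PreGM array overlapped a KLS array. These calls were not stable: with the slide as a block the changes were -0.78, -0.87 and -1.52 and none was called. No slide held both KLS and PreGM arrays, so that fit compares them only through other fractions, CFUe included. In a fit without the PreMegE and CFUe arrays all 3 were kept (SE 0.24, 0.26 and 0.51, limma adjusted p = 0.00117, 0.0031 and 0.00673). They were also kept with KLS and PreGM fitted alone (limma adjusted p = 0.0131, 0.0265 and 0.00309). Leaving out any 1 of the 6 arrays ended the call of Ctla2a (-1.58 to -1.19), 5 of 6 ended that of the first Ctla2b probe (all but PreGM replicate 2; -1.46 to -1.0) and 3 of 6 that of the second (KLS replicates 1 and 2 and PreGM replicate 3; -2.39 to -1.96).

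The main myeloid fall came one step later. From PreGM to GMP the Ctla2a probe fell by 4.75 (27.0-fold, SE 0.50, limma adjusted p = 2.4e-06), the first Ctla2b probe fell by 4.86 (29.1-fold, SE 0.42, adjusted p = 2.68e-07) and the second fell by 5.02 (32.5-fold, SE 0.64, adjusted p = 1.88e-05). The 3 calls stood against 6.36% of all probes called lower, and no GMP array overlapped a PreGM array. They kept direction and call in each of the 16 alternatives run, with changes from -5.30 to -3.74 over the 3 probes. The alternative without a minimum fold could not have ended a call. GMP replicate 1 and PreGM replicate 1, which shared a slide, differed by -4.83, -4.93 and -5.21. From KLS to GMP the differences amounted to -6.16, -6.16 and -7.25 (limma adjusted p = 3.64e-08, 4.59e-09 and 9.61e-08), 3 of 3 called lower against 13.7% of all probes, and -6.22, -6.03 and -7.06 for the pair on a shared slide.

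From GMP to Mac1Gr1 all 3 probes went lower again. The Ctla2a probe fell by 1.92 (SE 0.50, limma adjusted p = 0.00233), the first Ctla2b probe fell by 1.99 (SE 0.42, adjusted p = 0.000392) and the second fell by 1.53 (SE 0.64, adjusted p = 0.0403), with every Mac1Gr1 array below every GMP array. At this step 27.6% of all probes were called lower, so 3 called probes are little beside the background. The call of the second Ctla2b probe, not well above background on 2 of 3 Mac1Gr1 arrays, ended in 5 of 6 fits that left out an array (all but Mac1Gr1 replicate 2; -2.07 to -1.17). With the replicate number as a block, without a filter on dim probes and with normexp background correction it ended too, the change being -0.11 in the last.

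In the end fractions, Ter119 was above Mac1Gr1 and far below KLS. Against KLS all 3 probes were called lower and changed by -6.38, -6.30 and -7.07 (limma adjusted p = 6.27e-09, 8.39e-10 and 3.74e-08), with 24.4% of all probes called lower. Against Mac1Gr1 the Ctla2a probe was higher by 1.70 (SE 0.50, limma adjusted p = 0.00664), the first Ctla2b probe by 1.86 (SE 0.42, adjusted p = 0.000947) and the second by 1.71 (SE 0.64, adjusted p = 0.0268), with 22.0% of all probes called higher. Arrays of the second Ctla2b probe overlapped in this comparison, and its call ended without Ter119 replicate 2 (1.12) or without Mac1Gr1 replicate 1 (1.35) or 3 (1.52). With spike-in scaling the call of Ctla2a ended as well (0.98). The granulocytic sums of Mac1Gr1 and Ter119 overlapped, as did the T cell sums (6.40 to 8.10 in Mac1Gr1). Mac1Gr1 had a higher mast cell and basophil sum (179 to 205) and a lower B cell sum (20.4 to 35.4). Such sums can rest on a few bright genes and do not count cells.

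The summed level of the stem cell list was likewise highest in KLS and low in GMP and beyond. A sum is led by its brightest genes, and this list includes Meis1, which is also among the genes of most similar course. Slamf1, another gene of the list, was higher in PreMegE (0.32 ± 0.10, SD, n = 3) than in KLS (-3.00 ± 0.24). The sum ran from 36.5 to 42.8 in KLS, 9.79 to 12 in PreMegE, 8.48 to 9.07 in PreGM and 2.60 to 2.79 in GMP. It was 0.546 to 0.711 in Mac1Gr1, 0.488 to 0.587 in Ter119 and 0.599 to 1.25 in CFUe, where Procr, Fgd5, Mycn and Slamf1 were not above background. Its PreMegE arrays all lay below its KLS arrays, as for the second Ctla2b probe, whereas those of the other 2 Ctla2 probes overlapped. The megakaryocyte sum (9 genes) was highest in PreMegE (48.1 to 58.8, against 17.1 to 20.6 in KLS and 4.97 to 6.82 in CFUe). The mast cell and basophil sum (7 of 8 genes had a probe) was 2.52 to 3.23 in KLS and 5.19 to 6.69 in PreMegE, below the 49.8 to 56.3 in GMP, where Ctla2 was low. The T cell sum was 2.65 to 2.93 in KLS and 0.625 to 1.03 in PreMegE, with Cd3g and Cd28 not above background in the latter. The part of any of these cells in the Ctla2 levels was not tested.

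The 3 probes were then compared on the same arrays, where only shifts between fractions are informative, since levels of different probes are not on a common scale. The Ctla2a probe minus the first Ctla2b probe stayed between 0.11 and 1.05 over all 21 arrays, with fraction means from 0.54 (CFUe) to 0.91 (Mac1Gr1), although the Ctla2a probe itself ran from -3.26 to 7.02. Its SD over the arrays was 0.21. The 2 Ctla2b probes shifted more against each other than this: the second minus the first ran from -1.37 ± 0.15 (SD, n = 3) in KLS to -1.91 ± 0.10 in PreMegE, -2.31 ± 0.05 in PreGM and -2.46 ± 0.20 in GMP, fractions in which both were well above background on every array. In KLS every array (-1.50 to -1.21) lay above every array of these other 3 fractions. In CFUe, Ter119 and Mac1Gr1 the difference scattered more, from -3.87 to -1.18, and there the second probe had its lowest intensities (3.50 to 94.4).

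**Figure D2:**
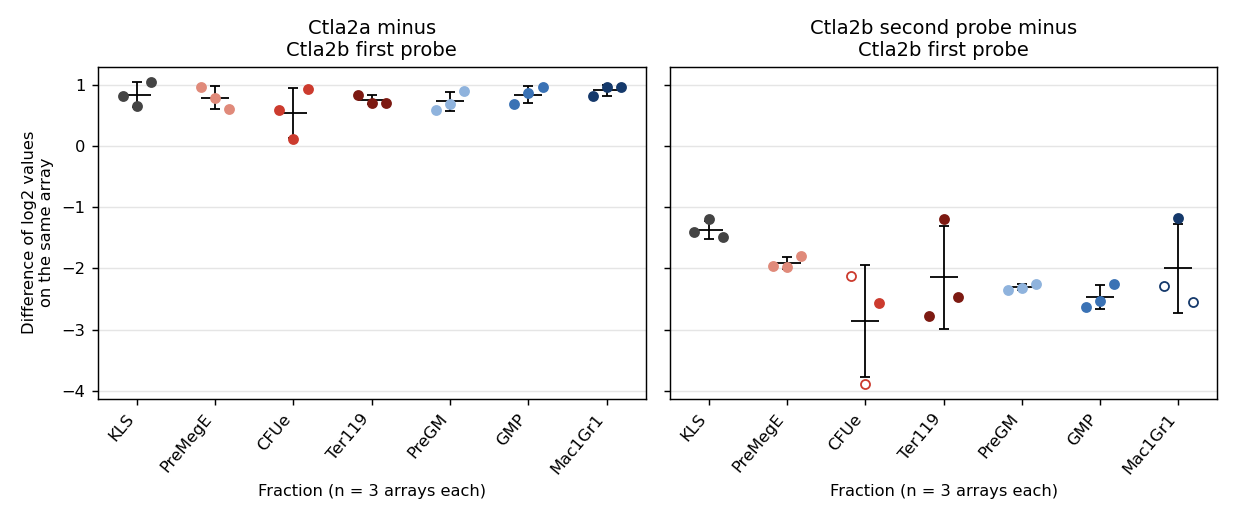
Difference of log2 values between probes on the same array, by fraction, for Ctla2a minus the first Ctla2b probe and for the second minus the first Ctla2b probe. Points are arrays, open where either probe was not well above background, and bars give the mean ± SD; the former difference stays between 0.11 and 1.05, and the latter is nearer to 0 in KLS (-1.37) than in PreMegE, PreGM and GMP (-2.46 to -1.91).

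Over the 21 arrays, Pearson's r was 0.9985 between the Ctla2a and the first Ctla2b probe, 0.9899 between the 2 Ctla2b probes and 0.9917 between Ctla2a and the second Ctla2b probe. These coefficients describe arrays that share fractions and scaling, and are given without a test. Over the 17 arrays on which both members of a pair were well above background, the pairs with the second probe gave 0.9887 and 0.9886. The first Ctla2b probe thus followed the probe of the other gene more closely than the second probe of its own gene. Whether the Ctla2a and the first Ctla2b probe read a single transcript, both transcripts or 1 each was not tested, so separate courses for the 2 genes cannot be given.

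Of 14156 genes compared over the 21 arrays, the 5 with the course most like the Ctla2a probe were also the 5 most like the first Ctla2b probe. These 2 probes ran almost alike (r = 0.9985), so the shared list is no second reading. The ranking also uses the PreMegE and CFUe arrays that selected the genes. Rgs1 was the closest (r = 0.993 with Ctla2a and 0.994 with Ctla2b), followed by Meis1, a homeobox transcription factor of stem and progenitor cells (0.979 and 0.974), Cirbp, a cold-inducible RNA-binding protein (0.977 and 0.976), Ccnjl, a cyclin J-like gene (0.975 and 0.969), and Pear1, a receptor of platelets and endothelium (0.961 and 0.963). Rgs1 measured 5.74 ± 0.08 in KLS (SD, n = 3), then 5.51 ± 0.20 in PreMegE, 4.30 ± 0.22 in PreGM, 1.04 ± 0.21 in GMP, 0.81 ± 0.10 in Ter119, -1.28 ± 0.26 in Mac1Gr1 and -1.81 ± 0.95 in CFUe, an order equal to that of Ctla2a. Likeness in r said nothing of the size of the change: Cirbp ranged only from 4.07 ± 0.11 in KLS to 2.79 ± 0.21 in CFUe. On the CFUe arrays, Meis1 and Ccnjl each rose well above background just once, and Ccnjl did so on none of the Mac1Gr1 arrays. Ranked by r over the 7 fraction means, 3 of the 5 genes recurred, and by Spearman's rho over the arrays, 2 of 5.

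**Figure D3:**
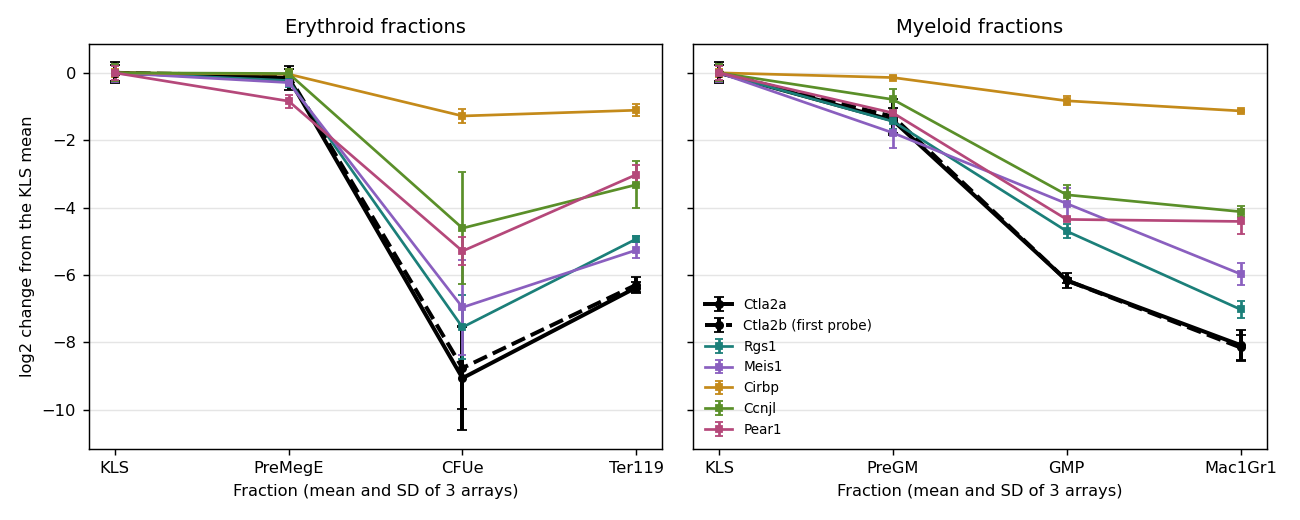
Change from the KLS mean (log2) along the erythroid and the myeloid fractions for Ctla2a, the first Ctla2b probe and the 5 genes with the most similar course. Points are means of 3 arrays and bars are SDs; Rgs1 follows the Ctla2 probes through each turn with a smaller change, and Cirbp changes by little over 1 log2 unit.

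The proteases and inhibitors around Ctla2 were followed in lists of 11 cysteine cathepsins, legumain included (10 tested), 20 inhibitor genes (19 with a probe, 13 tested) and 10 placental cathepsin-cluster genes (only Ctsm tested). Beside cystatins and stefins, the inhibitor list holds the fetuins Fetub and Ahsg and the kininogens Kng1 and Kng2. Ctsl, which encodes the lysosomal protease cathepsin L, went from 2.46 ± 0.05 (SD, n = 3) in KLS through 1.68 ± 0.12 (PreMegE) and 2.80 ± 0.03 (CFUe) to 2.26 ± 0.13 in Ter119 along the erythroid series. Along the myeloid series it went through 1.96 ± 0.24 (PreGM) and 2.43 ± 0.07 (GMP) to 3.27 ± 0.04 in Mac1Gr1. From PreMegE to CFUe, where Ctla2 was lower, Ctsl rose by 1.12 (SE 0.11, limma adjusted p = 4.59e-07), a call that ended with quantile (0.85) and spike-in scaling (0.60). Its other 5 steps were under 2-fold, and the rise from GMP to Mac1Gr1 (0.84) was negative with spike-in scaling (-1.20). Tpbpa and Tpbpb, the nearest neighbours of the members, were each well above background on 1 array of KLS and 1 of GMP and on none of the other fractions.

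Along the erythroid series the cathepsins were mostly lower in the progenitors and higher in Ter119. From KLS to PreMegE, 6 of 10 cathepsins fell and none rose, with a median change of -1.49 against 0.13 over all probes (8.86% called lower and 3.55% called higher). Legumain (Lgmn), an asparaginyl endopeptidase, fell by 6.60 (SE 0.49, limma adjusted p = 2.52e-08), and Ctss, an antigen-processing protease, fell by 6.56 (SE 0.58, adjusted p = 1.93e-07). Beside these falls the macrophage sum (7 genes) was 24.8 to 69.1 in KLS and 0.371 to 0.921 in PreMegE, and its part in them was not tested. Of the 13 genes of the inhibitor list, 1 fell (the fetuin Ahsg, not above background in PreMegE).

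From PreMegE to CFUe, 2 cathepsins rose (Ctsb and Ctsl) and 3 fell (Ctso, Ctss and Ctsw), with a median of -0.78 against 0.12 over all probes (9.96% called higher, 14.7% called lower). A second, dimmer Ctsb probe did not rise at this step (-3.09 in PreMegE and -3.08 in CFUe). Of the inhibitors 1 rose and 1 fell, with a median of 0.26. Over both lists 3 genes rose and 4 fell, against 1 and 4 with quantile scaling and 0 and 7 with spike-in scaling, where the values of Ctsb, Ctsl and Cst13 (0.57, 0.60 and 0.79) were under 2-fold. Cst7, a cystatin of cytotoxic and myeloid cells, fell by 4.73 (SE 0.47, limma adjusted p = 3.05e-07), and Ctsw, a protease of cytotoxic lymphocytes, fell by 3.78 (SE 0.46, adjusted p = 2.89e-06), to CFUe arrays of which 1 of 3 was well above background. Cst13 rose by 1.30 (SE 0.36, adjusted p = 0.00566). From CFUe to Ter119, 8 of 10 cathepsins and 8 of 13 inhibitors rose and none fell (medians 3.11 and 2.21 against 0.05, with 29.2% of all probes called higher and 28.0% called lower). With spike-in scaling 12 genes of both lists were called higher and 5 lower, against 16 and 0 here. Of the 16 genes only Ctso turned negative (-0.30), while others such as Ctsl (-1.91), Ctsz (-1.58) and Cstb (-1.55) went lower. The stefins Csta1 and Stfa2l1, neither above background in CFUe, were at least 733-fold and 436-fold higher in Ter119 (limma adjusted p = 1.81e-12 and 7.65e-13), beside the granulocytic and macrophage transcripts of that fraction given above, whose part in the rises of both lists was not tested. A second Csta1 probe did not rise at this step (-4.45 in CFUe and -4.50 in Ter119). Stefin A genes are close paralogues, and their probes may not be separate readings.

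Along the myeloid series the lists divided. From KLS to PreGM, 3 of 10 cathepsins fell and 1 of 13 inhibitors rose (medians -0.60 and 0.13 against 0.06, with 2.11% of all probes called higher and 6.52% called lower). Lgmn fell by 2.66 (SE 0.49, limma adjusted p = 0.00092), Ctsw fell by 1.66 (SE 0.46, adjusted p = 0.0134), and Cst7 rose by 1.89 (SE 0.47, adjusted p = 0.00705). The macrophage sum was 24.8 to 69.1 in KLS and 0.783 to 0.984 in PreGM, and its part in the falls was not tested. With spike-in scaling 1 gene of both lists was called higher and 10 lower, against 1 and 3. From PreGM to GMP, 3 cathepsins rose and 3 fell, and 1 inhibitor did each (medians -0.01 and 0.16 against -0.02, with 4.01% of all probes called higher and 6.36% called lower). With spike-in scaling 12 genes of both lists were called higher and 3 lower, against 4 and 4. Cst7 rose by 1.47 (SE 0.47, adjusted p = 0.0278) and Ctsh, an aminopeptidase of lysosomes, rose by 1.42 (SE 0.16, adjusted p = 5.42e-06), while Ctsw fell by 3.19 and Lgmn fell by 2.61.

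From GMP to Mac1Gr1, 4 cathepsins rose and 1 fell, and 6 inhibitors rose and 1 fell (medians 0.52 and 0.92 against 0.17, with 29.1% of all probes called higher and 27.6% called lower). With spike-in scaling the balance turned, with 6 genes of both lists called higher and 12 lower, against 10 and 2. Stfa2l1 was at least 4022-fold higher (adjusted p = 4.85e-14) and Csta1 rose by 13.30 (SE 0.47, limma adjusted p = 1.65e-13), from GMP arrays of which 1 of 3 was above background. The second Csta1 probe stayed between -5.42 and -4.45 in all fractions. Cst7 fell by 6.57 (SE 0.47, adjusted p = 9.6e-10) and Ctsz, a carboxypeptidase, fell by 1.40 (SE 0.12, adjusted p = 7.47e-09). The rises of Ctsw and Cst11 turned to -0.04 and -0.73 with spike-in scaling. Cst7 and the Ctla2 probes were both lower in CFUe than in PreMegE and in Mac1Gr1 than in GMP, but moved apart from KLS to GMP, where Cst7 rose at both steps and Ctla2 fell.

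**Figure D4:**
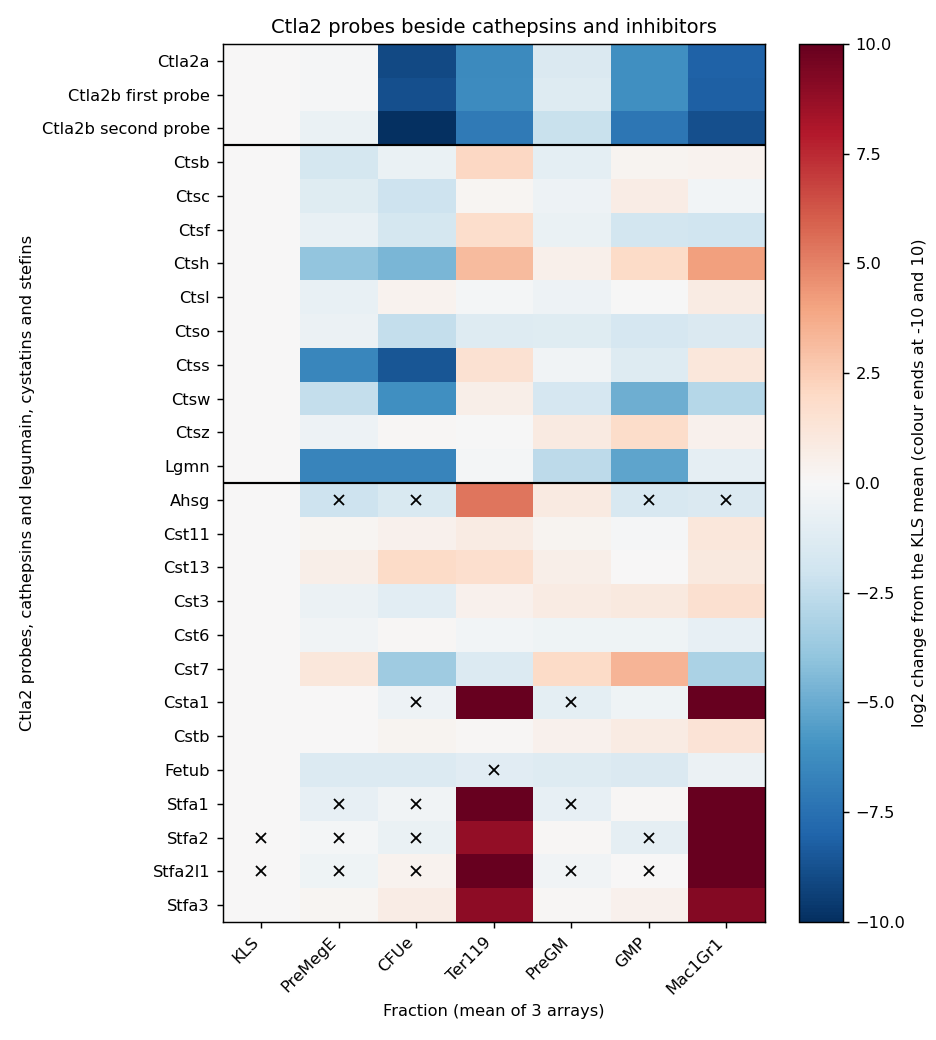
Change from the KLS mean (log2 colour scale that ends at -10 and 10) of the 3 Ctla2 probes, 10 cathepsins (legumain included) and 13 inhibitor-list genes (cystatins, stefins and the fetuins Fetub and Ahsg) in each fraction, means of 3 arrays. Crosses mark fractions in which a probe was well above background on 0 of 3 arrays; the Ctla2 rows are lowest in CFUe, GMP, Ter119 and Mac1Gr1, and Csta1 and the Stfa genes are high in Ter119 and Mac1Gr1.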

How the data were processed

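The deposited arrays come as Cy3 intensity per spot, linear and already background-subtracted by the authors in Agilent Feature Extraction (version 10.7.1.1 per the file headers). A deposited table of log2 values, normalized between arrays by the authors with a method not given in the sources used here, served as an alternative. Here log2 intensities were centred on the 75th percentile of each array. Outlier spots (80 to 283 per array) were left out, none was saturated, and spots of a probe were averaged. Tests covered the 29527 probes whose signal cleared background in every replicate of some fraction, and were made with limma 3.58.1 in R 4.3.3, in 1 fit of 7 fraction means, with Benjamini-Hochberg adjustment. The precision rests on 3 arrays per fraction, and how many of all probes had no overlap between fractions was not counted. Symbols came from RefSeq accessions (GRCm38.p6, names only, 64.8% of probes matched); the array annotation uses another build.

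Members and lists were chosen with earlier results of these data known. Named were all member probes, Ctsl, the 5 genes of most similar course (Pearson's r), the neighbours in rank, and at each step the 2 largest rises and falls called in the protease and inhibitor lists; the probe with the highest mean stood for a gene. A list sum adds linear levels. A bound ("at least") sets the brighter mean against, per dim array, the higher of the lowest signal well above background and the probe's own. Alternatives were quantile and spike-in scaling, the series table, no filter, the slide or replicate number as a block, fits without PreMegE and CFUe or with 2 fractions, no minimum fold, normexp (offset 50) and leaving out each array. The code was tested on simulated data.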

Additional observations from a re-analysis of the deposited data

Results flagged for a closer look

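At the last step of each series the 3 probes went opposite ways, with no overlap between the arrays of the fractions compared. Such changes were common: 29.2% of all probes were called higher at the erythroid step and 27.6% called lower at the myeloid step. The share of all probes without overlap was not counted. From CFUe to Ter119 the Ctla2a probe was higher by 2.69, the first Ctla2b probe by 2.47 and the second by 3.18, whereas from GMP to Mac1Gr1 they changed by -1.92, -1.99 and -1.53. The difference between the steps was not tested, since the CFUe arrays selected the genes. With spike-in scaling the Ter119 and CFUe arrays of all 3 probes overlapped, and with quantile scaling those of the second Ctla2b probe did.

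Changes of opposite sign were also seen for genes of the protease and inhibitor lists, and the differences between the series were not tested either. Only Cst7 was called at each step given here. Of the other changes, those of Cst13 from PreMegE to CFUe and of Ctsh from KLS to PreMegE and PreGM to GMP were called. The rest were under 2-fold and not called. Cst7 changed by -4.73 from PreMegE to CFUe and by 1.47 from PreGM to GMP, and by 2.21 from CFUe to Ter119 and -6.57 from GMP to Mac1Gr1. Cst13 changed by 1.30 from PreMegE to CFUe and by -0.57 from PreGM to GMP. Ctsh changed by -3.94 from KLS to PreMegE and by 0.53 from KLS to PreGM, then by -0.65 from PreMegE to CFUe and 1.42 from PreGM to GMP. Ctsl was lower in Ter119 than in CFUe (-0.53) but higher in Mac1Gr1 than in GMP (0.84). Ctsz changed by -0.52 from KLS to PreMegE and by 0.90 from KLS to PreGM. With spike-in scaling the signs of 3 of these genes were no longer opposite: Ctsl differed by -1.91 and -1.20, Ctsh at the first step by -4.40 and -0.09, and Cst13 by 0.79 and 0.45.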

How the results depend on the processing

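Over the 6 tested comparisons of the 3 probes, 252 alternatives kept direction and call, 36 lost the call and none turned the direction. The alternatives without a minimum fold reused the main fit, so they could not end a call or turn a direction. From PreGM to GMP, KLS to GMP and KLS to Ter119 each probe kept its call throughout, as did Ctla2a and the first Ctla2b probe from GMP to Mac1Gr1 and the first Ctla2b probe from Mac1Gr1 to Ter119. With 3 arrays per fraction the change from KLS to PreGM cannot be given firmly. The limma adjusted p of Ctla2a ran from 0.00117 (without PreMegE and CFUe) to 0.498 (slide as a block) over its alternatives. In the latter fit KLS and PreGM arrays shared no slide. The second Ctla2b probe is limited by its signal near background. The causes of the changes below were not tested, except that fewer arrays enter a fit that leaves one out.

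From KLS to PreGM the calls ended with the slide as a block (-0.78 for Ctla2a, -0.87 and -1.52 for the first and second Ctla2b probe), and that of Ctla2a also without a filter on dim probes (-1.41). Leaving out single arrays gave -1.58 to -1.19, -1.46 to -1.0 and -2.39 to -1.96. From GMP to Mac1Gr1 the second Ctla2b probe lost its call without the filter (-1.53), with normexp (-0.11) and when arrays were left out (-2.07 to -1.17). Between Ter119 and Mac1Gr1 it lost its call with quantile scaling (1.38), spike-in scaling (0.99), the series table (1.42), normexp (0.84), the 2 fractions alone (1.71) and arrays left out (1.12 to 2.26), and Ctla2a lost its call with spike-in scaling (0.98). The described difference between KLS and PreMegE became 0.92, 0.70 and 0.63 with the slide as a block and -0.61, -0.56 and -1.09 with spike-in scaling for Ctla2a and the first and second Ctla2b probe, -0.40 for the first Ctla2b probe in the series table and -0.89 for the second with quantile scaling. KLS arrays shared no slide with PreMegE or PreGM arrays, so the blocked values for these pairs rest on other fractions. With normexp the second Ctla2b probe differed by -6.63 from PreMegE to CFUe and by 1.41 from CFUe to Ter119. With spike-in scaling the first Ctla2b probe differed by 1.09 at the latter step.

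The replicate numbers showed no general pairing of the arrays. Deviations of same-numbered arrays from their fraction means correlated with a median of 0.0027 (63 pairs), against 0.0076 for other pairs. Single values ran from -0.43 to 0.37 and from -0.33 to 0.52, so the medians cannot settle whether some fractions were paired. With the replicate number as a block, Ctla2a lost its call from KLS to PreGM (-1.41) and the second Ctla2b probe from GMP to Mac1Gr1 (-1.53), and no other call of the members changed.

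Counts of called probes moved by over 1.5 times with spike-in scaling, without a fold minimum or with normexp, depending on the comparison. From KLS to PreGM, 2549 probes were called, 24.4% of them higher, against 5601 and 3.50% with spike-in scaling, 7575 without a minimum fold and 1213 with normexp. From PreGM to GMP the count was 3061 (38.6% higher) against 14516 (96.5%), 7773 and 1648. From KLS to GMP it was 6403 against 13844 without a minimum fold and 4105 with normexp (36.9% higher, 66.2% with spike-in scaling), and from KLS to Ter119 it was 14855 (51.5% higher) against 24750 (6.31%) with spike-in scaling. Between Mac1Gr1 and Ter119 it was 12385 against 19527 and 7208 without a minimum fold and with normexp, from KLS to PreMegE 3665 against 7732 and 2119, and from PreMegE to CFUe 7290 against 15021 and 4108. The share called higher in these 3 comparisons was 52.6%, 28.6% and 40.3%, and 20.9%, 9.98% and 10.4% with spike-in scaling. From GMP to Mac1Gr1 and CFUe to Ter119 it went from 51.3% and 51.1% to 8.40% and 19.6%.

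Of the protease and inhibitor genes, 4 were called from KLS to PreGM, against 11 with spike-in scaling, 11 without a minimum fold and 2 with the slide as a block. From PreGM to GMP 8 were called against 15 with spike-in scaling, from KLS to PreMegE 7 against 12 with spike-in scaling and 12 without a minimum fold, and from PreMegE to CFUe 7 against 12 without a minimum fold. Of the 5 genes with the most similar course, 3 recurred for each member by r over fraction means and 2 for each by Spearman's rho.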
